A study of Homo sapiens with 96 samples.

Results

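The experiment described here exposed A549 cells to hederagenin at 10 µM and compared them with the vehicle of the same batch. A549 is an established line from a human lung adenocarcinoma. Hederagenin is a pentacyclic triterpene of the oleanane type, and it was tested in the series as an ingredient of Paeoniae Radix, the peony root used in herbal medicine. The series title names the Aurora B pathway, a set of mitotic kinases and their partners, so its genes are reported below as well.

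The comparison rests on 6 of the 96 libraries of the series: 3 labelled hederagenin at the high dose of 10 µM and 3 labelled vehicle, all from batch 2. They were picked by those labels alone. Batch 2 holds 75 libraries in 25 groups of 3, made up of the vehicle and of 8 compounds at 10, 2 and 0.4 µM, and all groups are the same line without a genetic change. The sources used here give neither the kind of vehicle nor the exposure time. The labels do not say whether replicates were separate cultures, so the p-values reflect how far these libraries vary, and that variation may be purely technical. Hederagenin at 2 and 0.4 µM, and oleanolic acid and paeonol at 10 µM, with 3 libraries each, are used as points of reference.

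Cells short of amino acids, or with stress in the endoplasmic reticulum or mitochondria, phosphorylate the translation factor eIF2 alpha. General protein synthesis then falls while the transcription factor ATF4 is translated more, and ATF4 pairs with C/EBP proteins on a composite DNA element to raise genes of amino acid synthesis, uptake and tRNA charging, together with TRIB3, CHAC1 and DDIT3 (CHOP). Sterol supply is sensed separately: when membrane cholesterol is high, the factor SREBP2 is held in the endoplasmic reticulum and the genes of cholesterol synthesis are transcribed less. The account below follows these systems from the factor to its targets.

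Promoters of genes that rose are shown first, because the text returns to this group of genes. The letters searched were TGATGNAA, the core of the composite C/EBP-ATF element, on both strands and in the window from 250 bases before to 50 bases after the RefSeq start site. Capitals mark the match, sequences run 5′ to 3′ on the strand of the gene, and coordinates are those of GRCh38.p14. ASNS, asparagine synthetase, lies on the minus strand and its upstream bases are chr7:97872409-97872658, with the match starting 68 bases before the start site. CHAC1, an enzyme that degrades glutathione, lies on the plus strand and its upstream bases are chr15:40953221-40953470, with the match starting 209 bases before the start site.
ASNS: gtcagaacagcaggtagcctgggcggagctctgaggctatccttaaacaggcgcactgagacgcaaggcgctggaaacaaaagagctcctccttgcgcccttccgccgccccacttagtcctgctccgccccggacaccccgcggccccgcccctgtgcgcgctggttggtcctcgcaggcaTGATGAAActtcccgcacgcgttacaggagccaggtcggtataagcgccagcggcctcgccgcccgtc
CHAC1: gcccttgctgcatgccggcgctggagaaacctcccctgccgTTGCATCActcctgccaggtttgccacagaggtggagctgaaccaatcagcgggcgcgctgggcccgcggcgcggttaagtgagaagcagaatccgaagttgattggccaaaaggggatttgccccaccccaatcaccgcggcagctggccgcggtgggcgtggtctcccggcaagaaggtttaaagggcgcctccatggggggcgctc
The other 7 sequences are 30 bases around the match in genes of aminoacyl-tRNA synthetases, the enzymes that load tRNAs with amino acids. They are AARS (chr16:70289675-70289704), CARS (chr11:3057407-3057436), GARS (chr7:30594834-30594863), IARS (chr9:92293692-92293721), MARS (chr12:57488053-57488082), NARS (chr18:57621804-57621833) and TARS (chr5:33440956-33440985).
AARS: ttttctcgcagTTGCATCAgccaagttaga
CARS: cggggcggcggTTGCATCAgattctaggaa
GARS: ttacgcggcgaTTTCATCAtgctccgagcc
IARS: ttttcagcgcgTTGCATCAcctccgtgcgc
MARS: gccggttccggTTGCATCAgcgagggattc
NARS: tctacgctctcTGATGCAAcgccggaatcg
TARS: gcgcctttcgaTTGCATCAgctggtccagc
These letters occurred in 1217 of 27305 genes with a promoter window (4.46%). Among the cytosolic synthetase genes that were tested they occurred in 7 of 16 with a window (43.8%), and in 7 of the 9 that passed the test below (77.8%). That list was compiled after the values had been seen, and the 9 were picked by their own calls, so these shares are description only. A match in any window of a gene was counted, and ASNS, CARS, GARS and TARS had 2 windows each. In the ATF4 list they occurred in 7 of 22 (31.8%) and in 4 of the 14 that passed (28.6%), so 3 of those 7 matches are in genes that did not pass. In the amino acid synthesis enzymes they occurred in 3 of 13 (23.1%), namely ASNS, BCAT1 and GOT1. The letters TCACNCCAC, a form of the sterol regulatory element, were searched in the same way in the cholesterol list. They occurred in 1 of 18 tested genes with a window (5.56%) and in 0 of the 5 that passed. Of all genes with a window, 1.39% had them. A match describes the sequence and was not measured as a bound site.

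Deposited totals were 23575932 to 25954252 counts in the hederagenin libraries and 24218585 to 25266905 in the vehicle libraries, within the batch range of 15678190 to 35599940. Epithelial keratins were abundant in all 6 libraries, with KRT7, KRT8 and KRT18 at 2477 to 4477 counts per 1000000 deposited counts (CPM), and CDH1 was at 37.9 to 45 CPM. The alveolar markers NKX2-1, SFTPB and SFTPC had 0 to 3 counts a library. Of 21 markers of other cell types, CD3E was at 0 in all 6 libraries and PTPRC and HBB had 0 or 1 count, while COL1A1 was at 35.5 to 59.8 CPM, COL3A1 at 8.94 to 13.3 CPM and CD14 at 3.25 to 4.87 CPM. The summed level of the 21 was 52.6 to 61 CPM with vehicle and 52.4 to 80.7 CPM with hederagenin, and the part of this in any result was not tested. A feature that moved with the groups was the share of counts in the 13 protein genes of the mitochondrial genome. It was 11.6, 12 and 12.1% in the vehicle libraries and 7.73, 7.61 and 2.54% in hederagenin replicates 1, 2 and 3. The difference of the means was -5.95 percentage points, with an exact two-sided permutation p of 0.1, the smallest that 3 against 3 libraries can give. Shares as low as 0.825% occurred with paeonol at 10 µM and 1.55% with hederagenin at 0.4 µM, so low shares were not particular to the 10 µM dose. Hederagenin replicate 3 stood apart, and for several comparisons and lists the count of called genes without it is given as well.

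**Figure D1:**
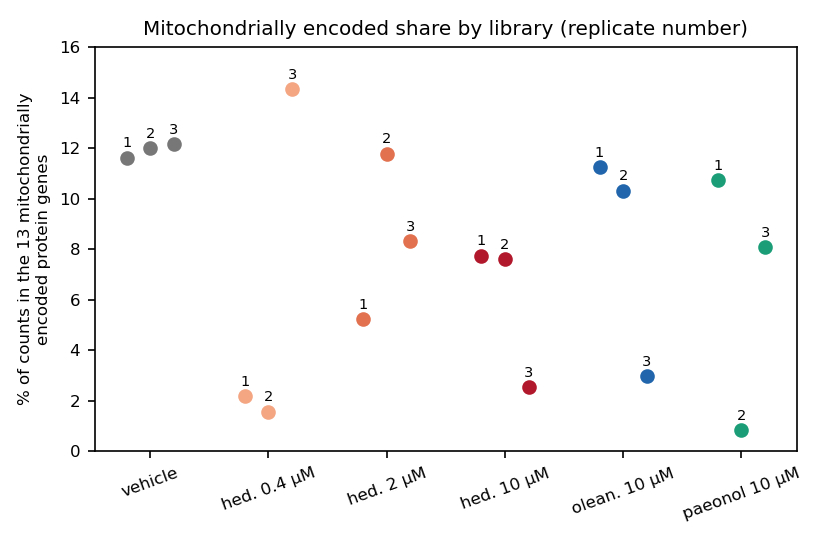
Share of each library's counts in the 13 mitochondrially encoded protein genes (y axis, percent) for the vehicle, 3 doses of hederagenin and oleanolic acid and paeonol at 10 µM (x axis), each point a library labelled with its replicate number. The 3 vehicle libraries lie between 11.6 and 12.1%, while hederagenin 10 µM replicate 3 is at 2.54%.

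Levels below are CPM after scaling of library sizes by the trimmed mean of M-values (TMM), and changes are log2 values of hederagenin minus vehicle with the standard error (SE) of the fit. Among 18324 genes tested, 444 differed between hederagenin at 10 µM and vehicle at an adjusted p below 0.05 (2.42% of those tested). Hederagenin was higher for 285 (1.56%) and lower for 159 (0.868%), and 55 rises (0.3%) and 11 falls (0.06%) were at least 2-fold. The shares of 1.56% higher and 0.868% lower are those to set beside later counts of calls in lists. The rises included genes of the ATF4 and amino acid response, and the falls included genes of cholesterol synthesis and uptake and of heat shock chaperones. Protein-coding genes made up 247 of the rises and 152 of the falls. The median log2 change over all tested genes was 0.007. An unadjusted p below 0.05 was reached by 2639 of the 18324 genes, the number to set beside later counts at that p. The spread in this test was estimated over the 75 libraries of batch 2, with a common biological coefficient of variation of 0.212, against 0.0923 in the 6 libraries alone. In 4 of the 75 libraries, all of catechin or gallic acid, the collagen gene COL1A2 was at 496 to 595 CPM, against at most 0.899 CPM in the others, and 543 genes passed when these 4 were left out (308 higher and 235 lower). With the 6 libraries alone 2901 genes passed, 1589 of them higher, and 431 of the 444 were among these in the same direction (97.1% of the 444 and 14.9% of the 2901). Leaving out 1 library of either group at a time from the fit of the whole batch, as in all later statements that a library was left out, gave 222 to 368 genes, with 222 left without hederagenin replicate 3, 246 without hederagenin replicate 2, 223 without vehicle replicate 1, 251 without vehicle replicate 2 and 256 without vehicle replicate 3.

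**Figure D2:**
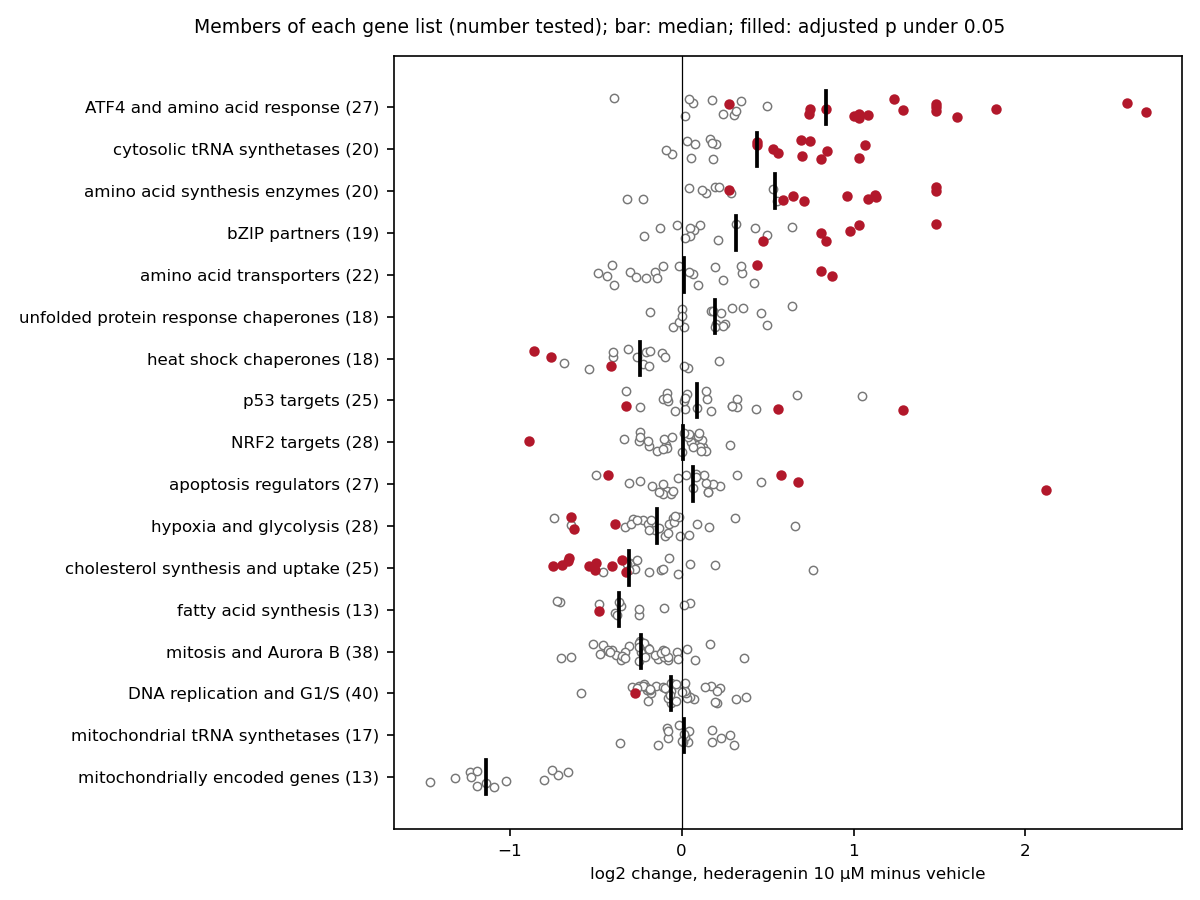
Log2 change of hederagenin 10 µM minus vehicle (x axis) for each tested member of 17 gene lists (y axis, with the number tested); bars are list medians and filled points passed at an adjusted p below 0.05. The ATF4 list has 17 filled points, all to the right of 0, and the cholesterol list has 10, all to the left.

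To follow the pathway from the factor to its targets, the factor itself was read first. ATF4 mRNA was at 369, 437 and 429 CPM in the hederagenin libraries and at 231, 223 and 235 CPM in the vehicle libraries. The groups did not overlap, with hederagenin higher, which was so for 19.1% of all tested genes. The log2 change was 0.84 ± 0.24 (SE, adjusted p = 0.047). This is close to the threshold of 0.05, and the ATF4 call was not followed when single libraries were left out. By group mean hederagenin at 10 µM (411 CPM) ranked 3 among 25 groups. Oleanolic acid (426 CPM) and gallic acid (414 CPM), both at 10 µM, lay above it. Single libraries of other groups lay above all 3, among them hederagenin 0.4 µM replicate 2 at 465 CPM and paeonol 10 µM replicate 2 at 520.4 CPM. Those libraries also had mitochondrial shares of 1.55 and 0.825%, and the part of that share in the ATF4 level was not tested. Against paeonol the log2 difference of ATF4 was 0.24 ± 0.24 (adjusted p = 0.78).

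Of 31 genes on the list of the ATF4 and amino acid response, 28 were found in the table and 27 were tested. This list, the cholesterol list and the others below were chosen with earlier results of these data known. Their counts therefore serve as description. Of the 27, 17 rose and 0 fell, with a median log2 change of 0.84 over the 27 and values from -0.39 to 2.70. In the 6-library test 20 were higher and 1 was lower, without hederagenin replicate 3 the count was 14, and over all alternatives it ran from 14 to 21. STC2, a secreted glycoprotein hormone that feeds back on calcium entry (chr5:173314713-173329503), was at 67.1, 76.6 and 79.999 CPM with hederagenin against 12.6, 12.7 and 11.9 CPM with vehicle. This was a log2 change of 2.59 ± 0.23 (SE; adjusted p = 6.56e-12), and the means lay further apart than the libraries within either group.

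CHAC1 was at 13.5, 15.1 and 17.6 CPM with hederagenin and at 2.30, 2.43 and 2.34 CPM with vehicle, a log2 change of 2.70 ± 0.30 (adjusted p = 3.98e-09). TRIB3, a pseudokinase that restrains ATF4 and AKT signalling, was at 196, 178 and 234 CPM against 57.7, 59.2 and 53.8 CPM (1.83 ± 0.27, adjusted p = 3.66e-06). DDIT3, the pro-apoptotic factor CHOP, was at 19.8, 17.1 and 20.8 CPM against 6.62, 7.72 and 6.35 CPM (1.48 ± 0.21, adjusted p = 2.22e-06). SESN2, a leucine-sensing inhibitor of mTORC1, was at 22.2, 20.1 and 22.9 CPM against 8.09, 8.57 and 9.99 CPM (1.29 ± 0.18, adjusted p = 1.9e-06). In each of these genes the lowest hederagenin library lay above the highest vehicle library, which was so for 19.1% of all tested genes. NUPR1, a stress-induced chromatin protein, and DDIT4, an mTORC1 inhibitor, rose as well (1.60 ± 0.44 and 1.03 ± 0.19), and both were highest in hederagenin replicate 3.

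The 10 members that did not pass were not all close to it. ATF3, a related stress factor, had a log2 change of 0.50 (adjusted p = 0.151), and SHMT2 had 0.31 (adjusted p = 0.238). The cystine transporter gene SLC7A11 and the secreted factor GDF15 were at 0.04 and 0.02, and the glutamine transporter SLC38A2, with 303, 213 and 228 CPM against 324, 322 and 332 CPM, was at -0.39 (adjusted p = 0.581).

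**Figure D3:**
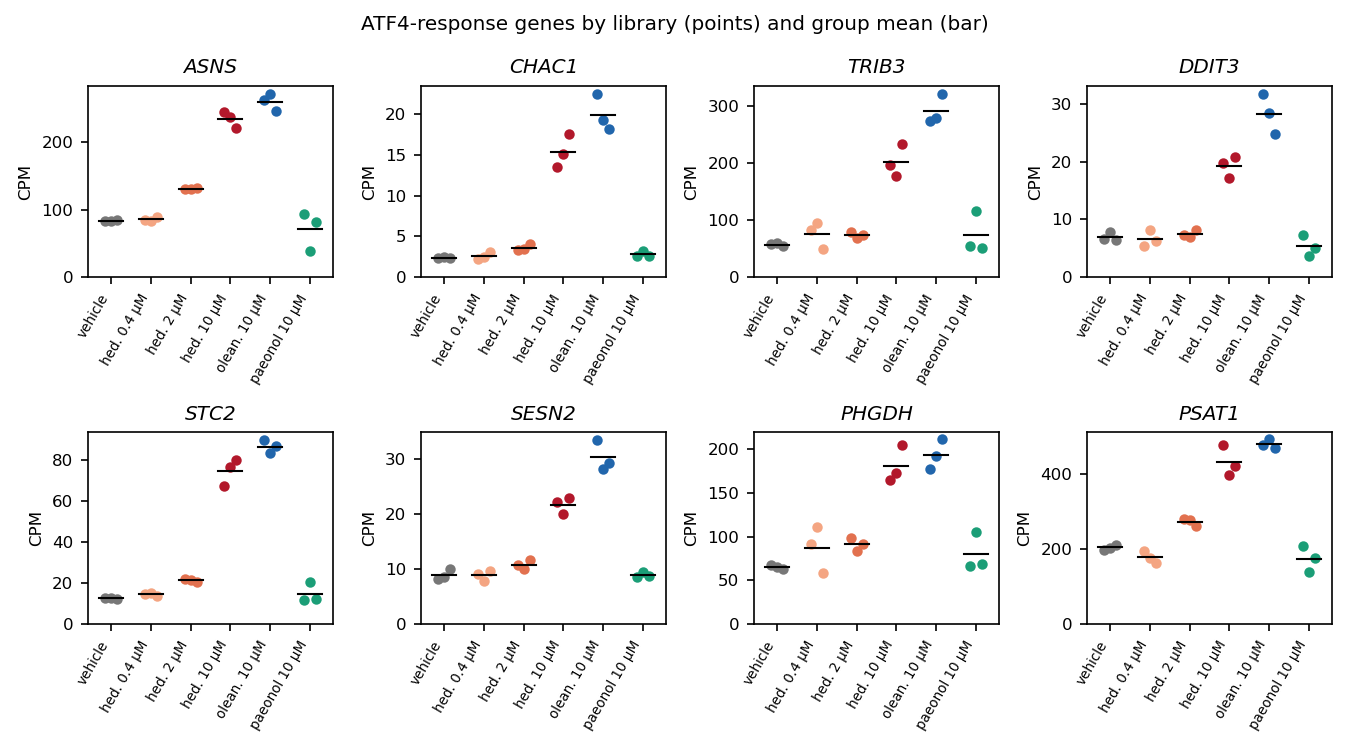
CPM of 8 genes of the ATF4 response (y axes) in each library of 6 groups (x axis), with points for libraries and bars for group means. Hederagenin and oleanolic acid at 10 µM stand above the other 4 groups in all 8 panels; CHAC1 means are 15.4 and 19.96 CPM there and 2.36 CPM with vehicle.

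The following lists of amino acid enzymes, transporters, synthetases, eIF2 genes and partner factors were added after the values had been seen, and likewise serve as description. Among 20 amino acid synthesis enzymes, 10 rose and 0 fell, with a median log2 change of 0.54. ASNS was at 245, 237 and 221 CPM with hederagenin and at 83.3, 83 and 84.9 CPM with vehicle (1.48 ± 0.23, adjusted p = 9.94e-06). The 3 enzymes that make serine from a glycolytic intermediate all passed. PHGDH, the entry enzyme, was at 165, 173 and 205 CPM against 67.1, 64.7 and 62.9 CPM (1.48 ± 0.20). PSAT1 was at 477, 397 and 421 CPM against 198, 202 and 211 CPM (1.08 ± 0.12), and PSPH changed by 0.27 ± 0.08 (adjusted p = 0.0384). BCAT1, the cytosolic transaminase of branched-chain amino acids, was at 169, 141 and 145 CPM against 67.7, 69.6 and 71 CPM (1.13 ± 0.09, adjusted p = 1.42e-13). GPT2, PYCR1, GOT1, ASS1 and CBS made up the rest of the 10, with CBS uncertain because the genome holds a near-identical copy, CBSL.

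Isoforms of the same reaction were not always called alike, although the difference between isoforms was not tested. GOT1, the cytosolic aspartate transaminase, rose by 0.65 ± 0.09 on the log2 scale, while GOT2, its mitochondrial isoform, was at -0.22 (adjusted p = 0.242). In the folate pathway 3 of 12 one-carbon enzymes rose, and all 3 are mitochondrial: MTHFD2 (1.0 ± 0.14), MTHFD1L (0.49 ± 0.09) and ALDH1L2 (1.23 ± 0.27). MTHFD1, the cytosolic counterpart of MTHFD2 and MTHFD1L, had a log2 change of -0.04. The cytosolic SHMT1 had one of 0.05, and its mitochondrial counterpart SHMT2, given above, did not pass either. PCK2, the mitochondrial form of phosphoenolpyruvate carboxykinase, was at 90.6, 91.1 and 125 CPM against 32.2, 33.7 and 33.8 CPM (1.62 ± 0.33, adjusted p = 0.00164).

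Of 22 amino acid transporters, 3 rose and 0 fell, and the median was 0.01. The 6-library test called 5 higher and 5 lower, DESeq2 called 3 higher and 1 lower, and the fit of the 12 libraries of hederagenin and vehicle called 1 higher. The 3 that rose were the neutral amino acid exchanger SLC1A4 (0.88 ± 0.10), the glutamine carrier SLC1A5 (0.44 ± 0.09) and the glycine transporter SLC6A9 (0.81 ± 0.22). SLC7A5, the large neutral transporter and the most abundant of the 22 by CPM, was at 3441, 3088 and 2927 CPM against 3010.0, 3017 and 2999.9 CPM, and these groups overlapped.

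Among 20 cytosolic aminoacyl-tRNA synthetase genes 11 rose and 0 fell (median 0.44), and the count was 11 in 16 of 17 alternatives and 13 in the other. AARS, the alanine enzyme, was at 466, 504 and 473 CPM against 275, 273 and 274 CPM, a log2 change of 0.81 ± 0.06 (adjusted p = 1.42e-13). GARS, the glycine enzyme, was at 343, 397 and 376 CPM against 182, 179 and 185 CPM (1.03 ± 0.10). SARS, YARS, CARS, MARS, IARS, EPRS, TARS, NARS and LARS were the other members that rose, by 0.44 to 1.07. The remaining 9 had log2 changes from -0.09 to 0.20, among them HARS at 79.5, 79.7 and 84.2 CPM against 79.5, 77.6 and 81.5 CPM. The 7 genes whose promoter letters are printed above were all among the 11.

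None of the 17 mitochondrial tRNA synthetases passed in the edgeR test (0 higher, 0 lower, median 0.02). At an unadjusted p below 0.05, 2 were higher and 1 was lower, against 2639 of all 18324 genes in either direction. DESeq2 called 0, and the 6-library test called 1 in each direction.

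**Figure D4:**
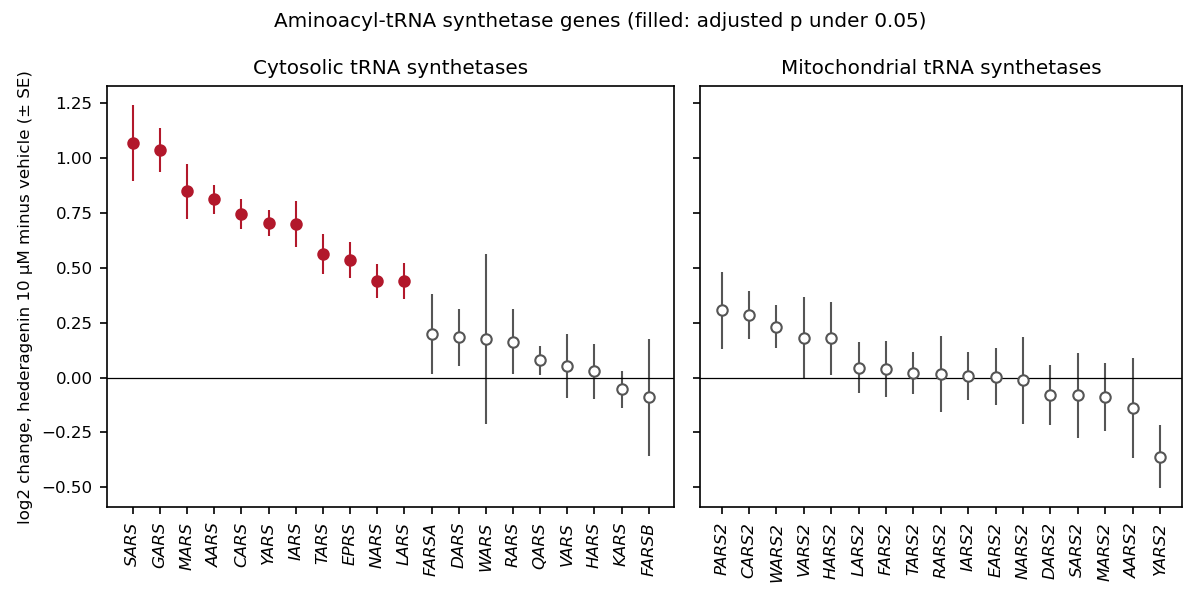
Log2 change of hederagenin 10 µM minus vehicle with its SE (y axis) for 20 cytosolic and 17 mitochondrial aminoacyl-tRNA synthetase genes (x axis); filled points passed at an adjusted p below 0.05. The 11 filled points are cytosolic and run from 0.44 to 1.07, and the mitochondrial genes centre on 0.02.

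Upstream of ATF4, 1 of 16 genes of the eIF2 complex, its kinases, phosphatase and exchange factor rose: EIF2S2, the beta subunit of eIF2 (0.62 ± 0.18, adjusted p = 0.0394). This call was lost whichever of the 6 libraries was left out, with DESeq2 size factors, without the filter on low counts and in the 12 libraries. Transcripts of the 4 kinases EIF2AK1, EIF2AK2, EIF2AK3 and EIF2AK4 had log2 changes between -0.13 and -0.03, none of which passed. Of 19 bZIP factors that can pair with ATF4 or resemble it, 6 rose, among them CEBPG, its usual dimer partner, at 159, 142 and 164 CPM against 88.5, 83.8 and 93 CPM (0.81 ± 0.10), ATF5 (0.98 ± 0.18) and JDP2 (1.03 ± 0.26). This count was 3 without hederagenin replicate 2 or 3 or vehicle replicate 1 or 2. Of 18 chaperones and enzymes of the unfolded protein response 0 passed in edgeR or DESeq2, and the 6-library test called 5 higher. At an unadjusted p below 0.05, 3 were higher, against 2639 of all 18324 genes in either direction. HSPA5, the chaperone BiP, had a log2 change of 0.35 (adjusted p = 0.432) and XBP1 0.64 (adjusted p = 0.123).

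Outside these lists, FAM129A (also NIBAN1, a stress-induced regulator of translation) had the smallest adjusted p of all genes. It was at 48.6, 46.7 and 46.2 CPM with hederagenin and 10.2, 9.38 and 9.26 CPM with vehicle, a log2 change of 2.29 ± 0.15 (adjusted p = 3.08e-17). ADM2, a peptide hormone of the calcitonin family, was at 8.09, 8.05 and 8.27 CPM against 1.97, 1.5 and 2.30 CPM (2.08 ± 0.24, adjusted p = 1.19e-08). Other large rises were at low levels: FUT1, a fucosyltransferase (2.34 ± 0.46), BEX2 (2.13 ± 0.46), the apoptosis activator HRK at 0.937, 0.83 and 1.29 CPM against 0.126, 0.283 and 0.283 CPM (2.12 ± 0.41), and NDUFA4L2 (1.62 ± 0.33). RPL12P28, a pseudogene, and ST20-MTHFS, a read-through of neighbouring genes, also appeared among the largest rises (2.80 and 1.97), and their counts are uncertain because reads can be shared with near-identical or overlapping genes.

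Among the largest falls were GRHL3, an epithelial transcription factor, at 2.59, 2.24 and 2.59 CPM against 5.74, 5.5 and 5.17 CPM (-1.14 ± 0.23, adjusted p = 0.00141), the zinc-finger gene ZC3H6 (-1.11 ± 0.27), the hyaluronidase HYAL1 (-1.03 ± 0.19), the natural killer ligand MICB (-1.01 ± 0.29), KLB, a co-receptor for fibroblast growth factors (-1.0 ± 0.24), and the riboflavin transporter SLC52A3 (-0.95 ± 0.20). MICB passed in 9 of 17 alternative settings, SLC52A3 in 15, KLB in 14, ZC3H6 in 13, GRHL3 in 16 and HYAL1 in all 17. GPX2, a glutathione peroxidase and NRF2 target, was the single NRF2 target of 28 to pass: 153, 181 and 120 CPM against 280.1, 283 and 275 CPM (-0.89 ± 0.24, adjusted p = 0.0249), in 11 of 17 alternatives and not without hederagenin replicate 1 or 3 or any vehicle library.

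Of 25 tested genes of cholesterol synthesis and uptake, 10 fell with hederagenin, 0 rose and 15 did not pass. The median log2 change was -0.30, and 3 of the 15 had positive values, up to 0.76 for PMVK. The count was 7 without hederagenin replicate 3, 6 without hederagenin replicate 2, 12 with DESeq2, 5 without the filter on low counts and 4 in the 12 libraries of hederagenin and vehicle alone. In the 6-library test 13 were lower and 1 was higher. The gene for SREBP2 itself, SREBF2, was at 129, 125 and 146 CPM against 147, 144 and 139 CPM, and these groups overlapped.

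DHCR7, which catalyses the last step of the Kandutsch-Russell branch of cholesterol synthesis, was at 51.3, 47.6 and 44.2 CPM with hederagenin and 82.7, 78.2 and 79.8 CPM with vehicle (-0.75 ± 0.15, adjusted p = 0.00125). FDFT1, squalene synthase, was at 85.7, 93.3 and 87.5 CPM against 117, 119 and 117 CPM (-0.41 ± 0.09, adjusted p = 0.00502). All hederagenin libraries were below all vehicle libraries for both genes (so for 19.1% of all tested genes), and DHCR7 kept its call in all 17 alternatives.

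STARD4, SQLE, MSMO1, HSD17B7 and IDI1 fell too, with log2 changes from -0.69 to -0.32. PMVK, MVD and FDPS had their highest level in hederagenin replicate 3; PMVK was at 22.9, 25.6 and 41.1 CPM against 17.4, 16.7 and 18.8 CPM. Of 13 fatty acid synthesis genes 1 fell, the desaturase FADS2 at 324, 351 and 353 CPM against 486, 485 and 462 CPM (-0.48 ± 0.10, adjusted p = 0.00139), and the list median was -0.36. FASN was at -0.48 (adjusted p = 0.168) and SCD at -0.37 (adjusted p = 0.478).

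**Figure D5:**
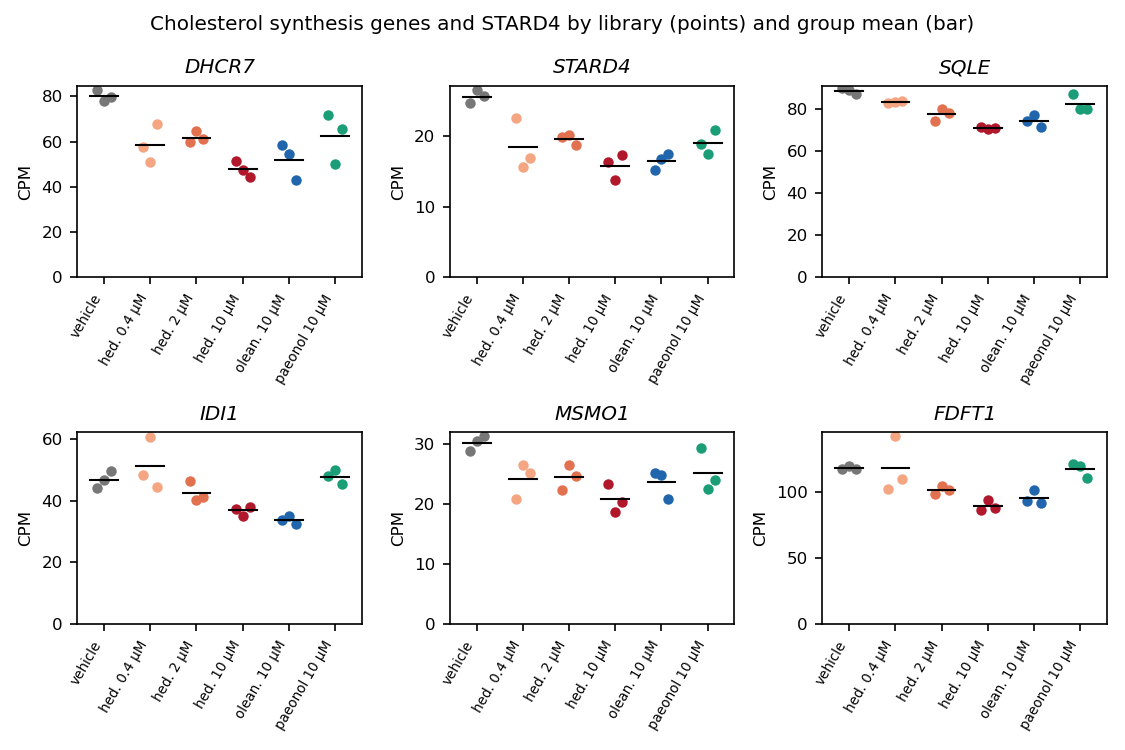
CPM of 6 genes of the cholesterol list (DHCR7, STARD4, SQLE, IDI1, MSMO1 and FDFT1; y axes) by library (points) with group means (bars) in 6 groups (x axis). Hederagenin 10 µM lies below vehicle in all 6 panels, and for DHCR7, STARD4 and SQLE all treated libraries shown lie below the vehicle libraries.

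The Aurora B genes named by the series title showed no called change. AURKB, the kinase, was at 69.9, 86.1 and 82.6 CPM with hederagenin and 79.5, 79.5 and 83.2 CPM with vehicle (-0.02 ± 0.09, adjusted p = 0.942). BIRC5 (survivin), a partner in the chromosomal passenger complex, was at 155, 149 and 160.3 CPM against 152, 148 and 155 CPM (0.03 ± 0.13). INCENP, its scaffold, was at 78.6, 88 and 80.6 CPM against 102, 105 and 109 CPM (-0.35 ± 0.14, adjusted p = 0.205), and CDCA8 (borealin) was at 37, 36.3 and 30.8 CPM against 45.6, 43.4 and 43.5 CPM (-0.35 ± 0.23, adjusted p = 0.509). Kinase and survivin values overlapped between the groups. Those of INCENP and CDCA8 were lower in all 3 hederagenin libraries, which was so for 19.1% of all tested genes. Of 38 mitosis and Aurora B genes, 0 passed in edgeR and DESeq2 called 3 lower. At an unadjusted p below 0.05, 10 were lower and 0 higher, against 2639 of all 18324 genes in either direction. The list median was -0.24, and the 6-library test called 19 lower and 0 higher. BUB1, the checkpoint kinase, had the smallest p of the list (-0.43 ± 0.13, adjusted p = 0.0606). Of 40 genes of DNA replication and the entry into S phase, 1 fell, the helicase subunit MCM4 (-0.27 ± 0.07, adjusted p = 0.0291), which kept its call in 10 of 17 alternatives and lost it without hederagenin replicate 2 or 3 or any vehicle library.

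Of 18 heat shock chaperones 3 fell and 0 rose, while over all tested genes 0.868% were called lower and 1.56% higher. The Hsp70 gene HSPA1B was at 101, 110.0 and 134 CPM against 210.3, 204 and 212 CPM (-0.86 ± 0.14, adjusted p = 3.29e-05), with reads that its copy HSPA1A can share; HSPA1A was at -0.68 (adjusted p = 0.0531). DNAJB4 was at 13.6, 13.6 and 15.4 CPM against 23.5, 23.5 and 25.2 CPM (-0.76 ± 0.12), and HSPH1, an Hsp110, changed by -0.41 ± 0.07. DESeq2 called 7 of the list lower. HSPA1B was also called lower than vehicle with hederagenin at 2 µM (-0.80 ± 0.14) and at 0.4 µM (-0.69 ± 0.14). Paeonol at 10 µM had it lower as well (-0.61 ± 0.14, adjusted p = 0.042). Set directly against 0.4 µM and paeonol, HSPA1B (-0.17 and -0.24) and DNAJB4 (-0.24 and -0.28) were not called. HSPH1 was called lower in both (-0.25 and -0.28). Of 28 hypoxia and glycolysis genes 3 fell: the glucose transporter SLC2A3 at 35.7, 39.1 and 37.2 CPM against 57.6, 57.2 and 58.1 CPM (-0.63 ± 0.10), the oxygen sensor EGLN3 (-0.64 ± 0.13) and PGK1 (-0.39 ± 0.10, in 10 of 17 alternatives).

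For the lists that follow, the shares called over all tested genes were 1.56% higher and 0.868% lower. Of 27 apoptosis regulators, 3 rose (HRK, BCL2L2 and PMAIP1, the BH3-only protein NOXA, at 15, 14.3 and 16 CPM against 10.5, 9.38 and 10.4 CPM) and 1 fell (BID). The 4 calls became 1 without hederagenin replicate 2 or 3 or any vehicle library, and BCL2L2 passed in 11, PMAIP1 in 10 and BID in 10 of 17 alternatives. Of 25 p53 targets, SESN2 and BTG2 rose and CCNG1 fell; SESN2 is also on the ATF4 list, and CDKN1A and MDM2 were not called. Among glucocorticoid receptor targets TSC22D3 rose (1.18 ± 0.24) while SGK1 (-0.63 ± 0.09) and PER1 (-0.47 ± 0.13, in 9 of 17 alternatives) fell. All 13 mitochondrially encoded protein genes had lower means with hederagenin (median log2 change -1.14), 0 passed, and MT-ND4L had the smallest p (adjusted p = 0.312). The 6-library test called 3 of the 13 lower, and 12 were lower with the replicate block in the 6 libraries and in a separate fit of the 5 libraries without hederagenin replicate 3. Of 45 cytosolic ribosomal protein genes 0 passed in edgeR or DESeq2, and the 6-library test called 18 higher and 1 lower. At an unadjusted p below 0.05, 11 were higher, against 2639 of all 18324 genes in either direction.

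Some calls set vehicle apart from all treated libraries of batch 2. Of the 285 rises, 16 had all 3 vehicle libraries below all 72 treated libraries (0.251% of all tested genes did), and of the 159 falls, 19 had them above (0.573% of all tested genes). CLK1, a kinase of splicing factors, is such a gene: 32.1, 29 and 32.5 CPM with hederagenin, 13.1, 15.9 and 17.1 CPM with vehicle (1.02 ± 0.10, adjusted p = 2.58e-11), and at least 22.9 CPM in every treated library. Against hederagenin at 0.4 µM the CLK1 difference was -0.06 ± 0.10. KLF6, an early-response factor, showed the pattern in the other direction, at 44.9, 51.4 and 53 CPM against 82.2, 72.8 and 75.6 CPM (-0.63 ± 0.10), with no treated library above 71.6 CPM. SLC2A3, KLF2, DNAJB4 and CTGF were among the 19. The calls were made with these same vehicle libraries, so higher shares among the calls were built in. Vehicle libraries were also closer to each other than treated libraries were: the chi-square per degree of freedom between pairs of replicates was 2.10 to 2.91 for vehicle and 15.3 to 86.3 for hederagenin at 10 µM. The part of either feature in the counts of calls was not tested.

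In another pattern, 67 of the 285 rises (23.5%) had all 3 hederagenin libraries above every library of batch 2 outside oleanolic acid at 10 µM. The share among all tested genes was 0.524%. The rises were called from these same hederagenin libraries, so a higher share among them was built in, and it serves as description only. FAM129A, STC2, CHAC1, TRIB3, ASNS, DDIT3, SESN2, PSAT1, PHGDH, AARS and GARS had this pattern, while ATF4 did not. Across the 25 groups hederagenin at 10 µM had the second highest mean for STC2, CHAC1, TRIB3, ASNS, DDIT3, SESN2, PSAT1 and PHGDH, after oleanolic acid at 10 µM. The third was oleanolic acid at 2 µM in each of these.

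The dose series places these values. All comparisons with vehicle use the same 3 vehicle libraries, so each is given with its own values. At 2 µM 10 genes passed (0.0546% of those tested), 4 higher and 6 lower, with 0 of the 27 ATF4 genes among them, and 1065 genes had an unadjusted p below 0.05; DESeq2 called 71. At 0.4 µM 559 passed (3.05%), again with 0 of the 27 ATF4 genes. That count was 4641 without replicate 3 of the 0.4 µM group, 20 without its replicate 2, 17 to 41 when a vehicle library was left out and 0 in the 6 libraries of these groups alone (3117 at an unadjusted p below 0.05), and 2 of the 0.4 µM libraries had mitochondrial shares of 2.16 and 1.55% against 14.3% in the remaining library. Without the 4 libraries with high COL1A2, 33 genes passed at 2 µM and 1321 at 0.4 µM. STC2 was at 14.5, 15 and 13.6 CPM at 0.4 µM and at 21.7, 21.3 and 20.4 CPM at 2 µM, against 67.1 to 79.999 CPM at 10 µM. ASNS was at 84.4, 83.8 and 89 CPM, then 130.1, 131 and 132 CPM, then 221 to 245 CPM. At 2 µM the log2 changes against vehicle, 0.77 ± 0.23 for STC2 and 0.65 ± 0.22 for ASNS, did not pass (adjusted p = 0.24 and 0.439). CHAC1 was at 2.20, 2.46 and 3.03 CPM at 0.4 µM and 3.36, 3.44 and 4.12 CPM at 2 µM.

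Set directly against the 0.4 µM dose, 192 genes passed (1.05%), 117 higher (0.639%) and 75 lower (0.409%) at 10 µM. Leaving out 1 library gave 96 to 484, the low value without replicate 2 and the high value without replicate 3 of the 0.4 µM group. Without replicate 1, 2 or 3 of the 10 µM group the count was 98, 129 and 121. Of the 27 ATF4 genes 15 were higher and 0 lower (median 0.70), and 9 of 20 cytosolic synthetases and 9 of 20 amino acid synthesis enzymes were higher. STC2 differed by 2.38 ± 0.23 and ASNS by 1.45 ± 0.22, and AARS by 0.65 ± 0.06. Of the 25 cholesterol genes 7 were lower. FDFT1, at 102, 142 and 109.7 CPM at 0.4 µM, differed by -0.41 ± 0.09 (adjusted p = 0.00835). DHCR7 was not called between the doses (-0.30 ± 0.15, adjusted p = 0.474). Against vehicle the 0.4 µM dose had a log2 change of -0.45 ± 0.15 for DHCR7 (adjusted p = 0.066).

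Oleanolic acid has the same oleanane skeleton and differs from hederagenin by the lack of a hydroxyl group. This was the only pair of related structures compared, at the matched dose of 10 µM. In the direct test 2 of 18324 genes differed (0.0109%), 578 had an unadjusted p below 0.05 and DESeq2 called 5. FGB, the fibrinogen beta chain, was higher with hederagenin at 201, 232 and 210 CPM than with oleanolic acid at 160.2, 145 and 137 CPM (0.54, adjusted p = 0.00737), and the vehicle libraries were at 251, 253 and 245 CPM. DUSP5, a phosphatase of nuclear ERK, was lower at 49.3, 49.1 and 51.1 CPM than 72.4, 76.1 and 66.6 CPM (-0.53, adjusted p = 0.0155), with vehicle at 61.3, 59.2 and 59.1 CPM. None of the 27 ATF4 genes was called between the compounds, and the median difference was -0.18.

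The 95% intervals bound how far the compounds could differ in the fitted log2 difference. For ASNS it was -0.15 (-0.59 to 0.29), for STC2 -0.22 (-0.65 to 0.22) and for CHAC1 -0.38 (-0.92 to 0.17). DDIT3 (-0.56, -0.96 to -0.15), SESN2 (-0.48, -0.84 to -0.13) and TRIB3 (-0.53, -1.04 to -0.01) were lower with hederagenin before adjustment, each with an adjusted p of 1. DDIT3 was at 31.7, 28.5 and 24.7 CPM with oleanolic acid, above all hederagenin libraries. Of the synthetases, AARS differed by -0.08 (-0.21 to 0.05) and GARS by 0.00 (-0.20 to 0.20). DHCR7 differed by -0.13 (-0.43 to 0.18) and FDFT1 by -0.10 (-0.29 to 0.08). Against the vehicle they share, oleanolic acid at 10 µM had 815 genes past the threshold (4.45%), 473 higher (2.58%) and 342 lower, and 19 of the 27 ATF4 genes were higher.

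Paeonol at 10 µM, a small phenolic ketone, gave a reference with its own low-share library. Against vehicle it had 23 genes past the threshold (0.126%). Hederagenin differed from it directly at 188 genes (1.03%), 112 higher (0.611%) and 76 lower (0.415%), with 104 to 196 when a library was left out; the 104 were without paeonol replicate 2. Of the ATF4 genes 13 of 27 were higher and 0 lower (median 0.80), of the cytosolic synthetases 10 of 20 were higher, and of the cholesterol genes 5 of 25 were lower. CHAC1 differed by 2.46 ± 0.30, with paeonol at 2.55, 3.20 and 2.63 CPM. FDFT1 differed by -0.40 ± 0.09, with paeonol at 121, 119 and 110.5 CPM. DDIT4, NUPR1 and ATF4 itself, raised against vehicle, were not called against paeonol (log2 differences of 0.45, 0.59 and 0.24).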

How the data were processed

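RNA-seq values are expected counts per gene for 60675 genes, deposited by the authors as a single table. Per the submitters' processing notes, reads went through FastQC, Trim Galore, STAR and RSEM 1.3.3 on GRCh38/hg38, and per the labels' protocols the kit keeps strand. The sources used here name neither the annotation release nor the strand setting. Expected counts were rounded to whole numbers. Genes passing edgeR's filterByExpr (18324) were fitted with edgeR 4.0.16 in R 4.3.3 (quasi-likelihood test, TMM factors, Benjamini-Hochberg adjustment, threshold 0.05) over all 75 libraries of batch 2, without covariates, and each comparison is a contrast of that fit. SE is the log2 change divided by the root of F. Every test named without a tool is this test. GENCODE 29 gave gene classes and coordinates, and RefSeq gave promoters.

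Named genes are the 12 largest rises and falls past the threshold with at least 1 CPM and no overlap of groups, up to 4 members per list, and the Aurora B genes. Other members of the lists are named to describe those lists. The members and lists were chosen with earlier results of these data known, and 7 of 42 lists were added after seeing the values. The tests were tried on simulated counts. Alternatives used DESeq2 1.42.0, other scalings, filters and sets of libraries. Lists with 0 calls in edgeR that the report does not describe are given in the closing section. Some genes that this rule or these lists name are not reported here.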

Additional observations from a re-analysis of the deposited data

Results flagged for a closer look

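Results are listed here where hederagenin and oleanolic acid, both at 10 µM, differed in the direct edgeR test. FGB differed by 0.54 on the log2 scale (adjusted p = 0.00737), with all 3 hederagenin libraries at 201 CPM or more and all 3 oleanolic acid libraries at 160.2 CPM or less. Hederagenin at 2 µM had FGB at 296, 280.2 and 295 CPM. DUSP5 differed by -0.53 (adjusted p = 0.0155), with hederagenin libraries at 49.1 to 51.1 CPM and oleanolic acid libraries at 66.6 to 76.1 CPM. Paeonol at 10 µM had DUSP5 at 49.4, 58.6 and 49.2 CPM. No gene was called between the compounds when hederagenin replicate 2 or oleanolic acid replicate 2 was left out. Without hederagenin replicate 3, 1 gene was called, higher with hederagenin. Over the 6 fits that leave out 1 library, a lower gene was called in 1 (without oleanolic acid replicate 3) and a higher gene in 3.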

How the results depend on the processing

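Settings changed the number of genes past the threshold more than the direction of named genes. For hederagenin 10 µM against vehicle the 444 genes became 692 with DESeq2, 168 without the filter on low counts, 261 in the 12 libraries of hederagenin and vehicle and 2901 in the 6 libraries alone; a fit of 5 libraries without hederagenin replicate 3, added after seeing the data, gave 3163, and leaving out 1 library gave 222 to 368. Without the 4 libraries with COL1A2 above 100 CPM, left out after seeing the data, it was 543. For 2 µM against vehicle 10 became 71, 5, 2359 and 33 with DESeq2, no filter, the 6 libraries alone and without those 4, and 5 to 7 without 1 library. For 0.4 µM 559 became 1589, 84, 0 and 1321, and 17 to 4641. For 10 µM against 0.4 µM 192 became 78 without the filter and 4 in 6 libraries, and 96 to 484. Against oleanolic acid 2 became 5 with DESeq2, 0 without the filter and 0 in 6 libraries (876 at an unadjusted p below 0.05), and 0 to 2. Against paeonol 188 became 83 and 3, and 104 to 196. The cause of these shifts was not tested, other than that settings with fewer libraries test fewer libraries. DESeq2 size factors, robust estimation and scaling without mitochondrial genes kept the totals over all genes that they were run on within 1.5 times. For the lists, size factors moved DNA replication and fatty acid synthesis from 1 to 2, eIF2 genes and YAP targets from 1 to 0 and mitosis from 0 to 1, and scaling without mitochondrial genes moved the first 2 lists likewise.

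Replicate numbers appear in both groups. Deviations of same-numbered libraries from their group means had correlations of -0.053, 0.0085 and -0.105 over 11459 genes. With 3 libraries a group these values cannot decide whether same-numbered libraries belong together. The numbers are used here only to name libraries. With the replicate block 488 genes passed for 10 µM and 28 for 2 µM, and 2547 with the block in the 6 libraries.

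Of 59 named genes that passed, 31 kept their call in all alternatives that gave a value and 0 reversed. Among named genes that did not pass, AURKB ran from -0.0933 to 0.0511 when 1 library was left out, with 0.000295 without vehicle replicate 3 and 0.0511 without hederagenin replicate 1, and BIRC5 ran from -0.00563 (without hederagenin replicate 3) to 0.0472. Depth limits the low genes: HRK and RPL12P28 rest on few counts.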

Other observations

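Lists not described above held few calls between hederagenin at 10 µM and vehicle. Over all tested genes 1.56% were called higher and 0.868% lower, and the list counts were not tested against those shares. OAS1, an interferon-induced sensor of double-stranded RNA, fell (-0.67 ± 0.16, adjusted p = 0.00827) as the single call among 19 interferon response genes. KLF6 and KLF2 were the 2 of 27 immediate early genes to pass, both lower, with KLF2 in 11 of 17 alternatives. CTGF fell among 20 YAP and TEAD targets (-0.37 ± 0.11). CXCL5 among 16 NF-kB targets (0.32 ± 0.09) and C1S among 13 acute phase and complement genes (0.31 ± 0.09) rose, and LAMP1 (-0.27 ± 0.07) and GLA (-0.49 ± 0.14) fell among 28 genes of autophagy and lysosome. These single calls were not stable: CTGF, CXCL5 and C1S were lost whichever of the 6 libraries was left out, LAMP1 and GLA passed in 11 and 10 of 17 alternatives, and without hederagenin replicate 3 none of the 5 passed, nor did OAS1, in the fit of the whole batch. CLK1, MAT2A (0.58 ± 0.06) and SRSF5 (0.48 ± 0.14, in 8 of 17 alternatives) rose among 13 CLK kinases and intron-retaining transcripts. No member of the lists for LXR, PPAR, aryl hydrocarbon receptor and bile acid targets, iron handling, metallothioneins, histones, proteasome, ribosome biogenesis, nuclear-encoded respiratory chain, airway epithelium or other cell types passed in edgeR. Over these 12 lists and 169 tested genes, 17 were higher and 5 lower at an unadjusted p below 0.05. Over all 18324 tested genes, 2639 reached that p in either direction. DESeq2 called 4 members of these lists higher and 1 lower, against 692 calls over all genes. The 6-library test called 29 higher and 8 lower, against 2901 calls over all genes. ABCA1, the cholesterol exporter and LXR target, was at 35.7, 26.1 and 26.1 CPM with hederagenin and at 17.9, 18.1 and 17 CPM with vehicle (0.73 ± 0.24, adjusted p = 0.0932).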
